A study of Mus musculus with 3 samples.

Results

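The genes described here are 7 transcription factor genes of the neural plate border and the neural crest, Pax3, Pax7, Msx1, Msx2, Tfap2a, Foxd3 and Snai2. Open chromatin around them was read from ATAC-seq peak lists, in which a peak is a stretch of DNA that the Tn5 transposase cut more often than its surroundings. A peak belonged to a gene if it overlapped the gene body or the 50 kb on either side (GENCODE M21 annotation, mouse build mm10). The peaks were selected by gene name and position, and the genes themselves were chosen with earlier results of these data known. Near the 7 genes lay 77 of the 129843 SOX2-ON peaks, 74 of the 131520 SOX2-OFF peaks and 86 of the 130348 CEpiLC peaks. Peaks of the 3 lists that shared at least 1 base were joined into 219488 merged regions, of which 120 lay near these genes.

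The samples were 3 cultures of mouse embryonic stem (ES) cell derivatives at 72 h, with 1 sample in each group, so no difference below has a replicate check or a test. All came from the HM1 ES cell line and were grown in N2B27 medium with bFGF (10 ng/ml) and the inhibitor of WNT secretion LGK974 (5 µM) for 2 days, and then also with the GSK3 inhibitor CHIR99021, which activates WNT signalling. SOX2-ON and SOX2-OFF were the same SOX2 TetON line, 1 picked clone whose own Sox2 gene had been ablated (genotype Sox2-/-), with a doxycycline-inducible Sox2 transgene at the Hprt locus and rtTA expressed from Rosa26. Doxycycline at 1 µg/ml was kept in SOX2-ON during differentiation and withdrawn in SOX2-OFF, and CEpiLC was the wild type parent line (HM1 TetON) without doxycycline. A difference between SOX2-ON and SOX2-OFF is therefore also one between cells with and without doxycycline, and a difference from CEpiLC is also one between a clone and its parent line. Peaks cannot show the edit in Sox2 itself, which had a start peak in all 3 lists.

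The neural plate border is the strip of ectoderm between the neural plate and the future epidermis, from which the neural crest arises. Pax3, Pax7, Msx1, Msx2 and Tfap2a encode border specifiers, factors that mark this strip in response to WNT, BMP and FGF signals. Foxd3 and Snai2 encode crest specifiers, which act later, as crest cells form and leave the epithelium. Pax3 is also expressed in the dorsal neural tube and in paraxial mesoderm, and WNT and FGF signals from the caudal embryo help to switch it on.

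The deposited strength of a peak grows with the depth of its library, so peaks were compared by rank, from rank 1 for the largest −log10 p of a list. Strong peaks below are the strongest 20000 of a list, and a peak was missing from another list if less than 10% of its length was covered there. The lists were not alike, since in the order SOX2-ON, SOX2-OFF, CEpiLC the −log10 p at rank 20000 was 26.4, 21.2 and 10.6, and the median width was 621, 741 and 526 bp. Read totals were not used here. In these bulk samples, fewer cells with an open site and less opening per cell cannot be told apart. The SOX2-ON and SOX2-OFF lists held an excess of peaks on chromosomes 6 and 8, and the CEpiLC list on chromosome 11, and none of the 7 genes lies on those.

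The labelled cell type was checked at the starts of marker genes. All 8 caudal epiblast markers examined had a start peak in every list, with median ranks of 21779, 19407 and 16539 (values follow this order of samples throughout). T (21225, 11301 and 13877), Cdx1 (22333, 13245 and 11620), Cdx2 (20090, 13713 and 10000), Nkx1-2 (30054, 24237 and 17717) and Hoxb1 (61723, 20845 and 15361) were weakest in SOX2-ON. Wnt3a (15287, 20011 and 18865) and Fgf8 (18505, 18803 and 24551) were strongest there, and Fgf17 had 54345, 50260 and 107245. The 7 pluripotency and epiblast markers also had a start peak in every list, with median ranks of 9717, 12551 and 13680. Their orders were mixed. Strongest in SOX2-ON were Pou5f1 (8255, 10220 and 13680) and Sox2 (9717, 11791 and 12565). So were Nanog (15552, 16815 and 22031) and Klf4 (7479, 12551 and 16546). SOX2-ON and SOX2-OFF also carried the Sox2 transgene, whose part in the Sox2 ranks was not tested. Otx2 (28383, 15937 and 19166) and Fgf5 (20193, 13071 and 11288) were weakest in SOX2-ON, and Klf2 had 5744, 5037 and 7231. The start peak was a strong one for 5, 7 and 6 of these markers. Of 5 genes of fibroblasts, which served as feeders for the ES cells and were removed by plating before differentiation, Postn had no start peak in any list, and the other 4 had one in all 3, with median ranks of 15177, 11012 and 11199. All 3 genes of later crest examined had a start peak in every list, with ranks of 38801, 32361 and 35680 at Sox10, 20356, 19806 and 16616 at Ngfr and 7723, 4790 and 6663 at Mitf. Markers on chromosomes 6, 8 and 11 were kept in these lists, and the part of the excess of peaks there in their ranks was not tested. An open start is not expression, and the part of other cells in the results below was not tested.

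Strong peaks near these genes that another list lacked were found in 6 regions, and the central 300 bp of 5 of them are given here (plus strand of GRCm38, the same build as mm10), because they are the strong sites whose presence differed between the samples. The 5 are within 50 kb of Pax3, Msx2 or Tfap2a, and all 3 genes are read from the minus strand. Names give the distance of the middle of the region from the 5′-most start of the gene, with plus for downstream. Capitals mark matches, on either strand, to any of 11 short motifs that are given further on. The first 4 were covered by a peak in SOX2-ON alone, and the last one was found in CEpiLC and SOX2-OFF but not in SOX2-ON.
Pax3 plus 29.1 kb, chr1:78167840-78168139: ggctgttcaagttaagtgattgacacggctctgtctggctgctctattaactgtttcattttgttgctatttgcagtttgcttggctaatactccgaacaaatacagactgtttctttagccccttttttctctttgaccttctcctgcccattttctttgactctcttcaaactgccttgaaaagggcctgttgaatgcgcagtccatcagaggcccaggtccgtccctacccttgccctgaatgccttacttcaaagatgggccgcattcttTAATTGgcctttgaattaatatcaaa
Msx2 upstream 8.89 kb, chr13:53481820-53482119: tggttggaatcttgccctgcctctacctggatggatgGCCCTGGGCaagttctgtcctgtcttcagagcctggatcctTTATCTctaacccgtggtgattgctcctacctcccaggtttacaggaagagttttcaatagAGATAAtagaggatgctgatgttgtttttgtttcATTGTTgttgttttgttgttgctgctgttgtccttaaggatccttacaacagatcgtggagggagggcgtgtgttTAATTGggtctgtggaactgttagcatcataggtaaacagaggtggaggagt
Msx2 plus 2.10 kb, chr13:53470825-53471124: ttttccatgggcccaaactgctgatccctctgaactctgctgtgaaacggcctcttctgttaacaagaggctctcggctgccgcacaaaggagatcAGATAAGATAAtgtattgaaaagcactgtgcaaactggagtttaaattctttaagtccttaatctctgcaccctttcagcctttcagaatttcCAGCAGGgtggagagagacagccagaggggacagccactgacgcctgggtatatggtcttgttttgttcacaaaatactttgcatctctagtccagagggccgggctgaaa
Tfap2a plus 12.9 kb, chr13:40725313-40725612: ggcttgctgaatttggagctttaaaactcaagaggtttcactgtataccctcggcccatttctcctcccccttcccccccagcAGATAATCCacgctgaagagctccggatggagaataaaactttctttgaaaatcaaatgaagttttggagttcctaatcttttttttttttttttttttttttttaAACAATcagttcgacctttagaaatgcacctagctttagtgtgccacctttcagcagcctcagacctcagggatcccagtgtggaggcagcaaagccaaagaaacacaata
Tfap2a plus 9.92 kb, chr13:40728307-40728606: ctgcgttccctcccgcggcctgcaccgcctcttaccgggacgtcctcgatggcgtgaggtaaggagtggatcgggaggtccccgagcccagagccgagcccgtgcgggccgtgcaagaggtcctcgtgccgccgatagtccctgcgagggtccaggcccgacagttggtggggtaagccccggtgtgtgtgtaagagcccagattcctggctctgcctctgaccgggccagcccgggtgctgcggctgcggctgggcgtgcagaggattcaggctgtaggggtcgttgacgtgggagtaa

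An annotated start of each of the 7 genes was open in every sample, though not every start of Tfap2a was. A peak lay within 1 kb of an annotated start of all 7 in all 3 lists, against 74.9%, 75.8% and 76.3% of 21911 coding genes in SOX2-ON, SOX2-OFF and CEpiLC. The start peaks were among the strong peaks for 5 of the 7 genes in each list. The same held for 60.0%, 62.4% and 61.7% of all coding genes, a share that also counts genes without a start peak. Most of the 7 start peaks were weaker than those of coding genes in general. The median rank over coding genes with a start peak was 8111, 8137 and 8567, and 6 of the 7 genes were weaker than that in every list, Snai2 being the exception.

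Between samples, the start ranks of a gene differed by at most 2.79 times. At the start of Pax3 (chr1:78196020-78197652), a paired-box factor gene, the peak had the ranks 13697, 12880 and 12992. Pax7, its closest relative, had the ranks 21713, 21396 and 27322, so it was weaker than Pax3 in each sample. Msx1, a homeobox gene that answers to BMP signals, had 11688, 12836 and 12748. These starts kept nearly the same place in the 3 lists. Msx2, the related homeobox gene, had 15011, 12648 and 10249, and Tfap2a, which encodes the AP-2 alpha factor, had 8908, 11400 and 15078 at its strongest start. The order of the samples was thus opposite at these 2 genes, with SOX2-ON weakest at Msx2 and strongest at Tfap2a. Foxd3, a forkhead gene of early crest and of pluripotent cells, had 25871, 26328 and 22738. Snai2, a zinc-finger gene of cell delamination, had the strongest start of the 7 in every list, with ranks of 6990, 4745 and 2507. Its ratio of ranks between SOX2-ON and CEpiLC, 2.79, was the only start ratio of 2 or more among the 7 genes, and 12.1% of coding genes had a start ranked at least 2 times higher in CEpiLC than in SOX2-ON. With 1 sample a group, no spread is known against which the neighbours in these orders could be told apart.

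**Figure D1:**
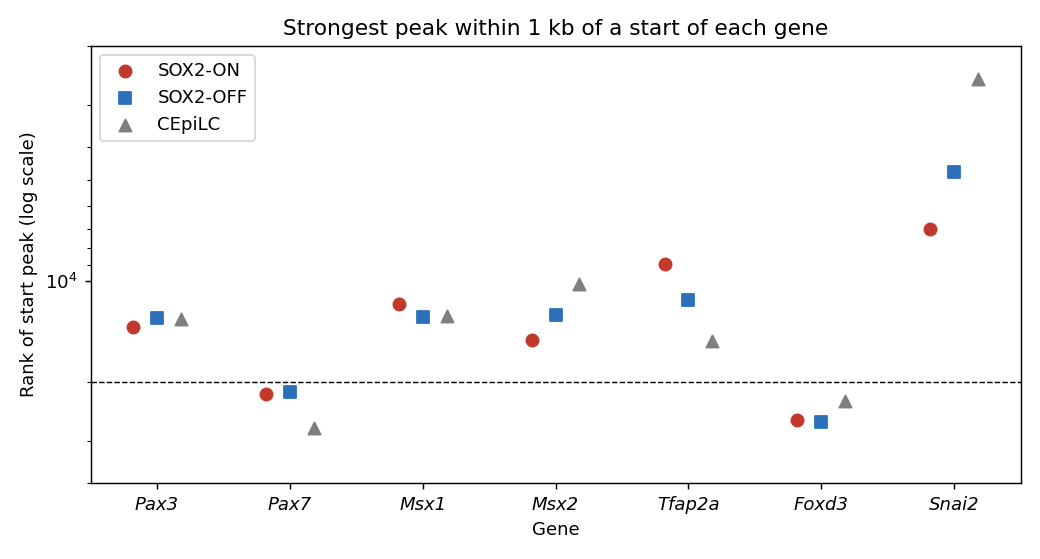
Rank of the strongest peak within 1 kb of a start (log axis, strongest at the top) for each of the 7 genes in SOX2-ON (circles), SOX2-OFF (squares) and CEpiLC (triangles), 1 sample each; the dashed line is rank 20000. Pax7 and Foxd3 lie below the line in all 3 samples, and the samples come in opposite order at Msx2 and Tfap2a.

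Width did not follow rank at the starts. The start peak of Pax3 covered 1076, 1477 and 1633 bp, and that of Msx2 742, 995 and 1216 bp. The weak starts of Pax7 and Foxd3 were the widest, with 2841, 2758 and 2888 bp at Pax7 and 2269, 2244 and 2165 bp at Foxd3. Fold enrichment, the ratio of pileup to local background, was highest at Snai2, at 5.04, 4.07 and 3.94, and lowest at Pax7 and Foxd3, between 1.72 and 2.19. Over all regions near the 7 genes that both lists covered, the median ratio of covered length was 0.894 for SOX2-ON over SOX2-OFF (0.916 over all regions), 0.994 for SOX2-ON over CEpiLC (1.02) and 1.13 for SOX2-OFF over CEpiLC (1.14). The widths near the 7 genes thus followed those of the lists as a whole.

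Genes with the most similar start ranks were searched among 15729 coding genes with a start peak in all 3 lists, taking the largest of the 3 rank ratios as the measure. The nearest to Pax3 were Adcy3, Gsn and Uqcc3, to Pax7 Ttbk1, Chrm1 and Tbx6, to Msx1 Slc25a22, Zfp618 and Dirc2, and to Msx2 H2-K1, Dleu7 and Snap25. Those nearest to Tfap2a were Iscu, Sart3 (which share a peak) and Psmb7, to Foxd3 Dnah10, Sema3a and Rftn2, and to Snai2 Med30, Ccp110 and Mettl16. All lay within 1.08 times the ranks of their gene, and none of the 21 is among the 7 genes.

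The density of peaks differed widely between the 7 genes. Their windows together held 8.27, 7.94 and 9.23 peaks per 100 kb, beside a median of 6.92, 7.27 and 8.17 over like windows of 18124 coding genes off chromosomes 6, 8 and 11. Pax7 was the densest in SOX2-ON and SOX2-OFF, with 13.2, 13.2 and 14.3, and Msx1 had 11.5, 8.65 and 14.4. Foxd3 had 4.89, 5.86 and 3.91 and Snai2 0.966, 1.93 and 0.966. Pax7 alone held 42 of the 120 regions, Pax3 21, Msx1 19, Tfap2a 16, Msx2 14, Foxd3 6 and Snai2 2. Foxd3 and Snai2 thus had few peaks beyond their starts, although their windows were about as long as those of Msx1 and Msx2.

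Over all chromosomes, regions near these genes were more often common to the samples than regions in general. All 3 lists covered 47 of the 120 (39.2%, Wilson 95% interval 30.9 to 48.1, which here and below covers counting error only), against 27.0% of all merged regions and 31.3% off chromosomes 6, 8 and 11. SOX2-ON alone covered 20 (16.7%, background 16.9%), SOX2-OFF alone 8 (6.67%, background 15.1%, or 13.3% off those chromosomes) and CEpiLC alone 23 (19.2%, background 20.3%). SOX2-ON and SOX2-OFF shared 7 regions that CEpiLC lacked (5.83%, background 10.5%, or 6.55% off those chromosomes). SOX2-ON and CEpiLC shared 3 (background 3.28%), and SOX2-OFF and CEpiLC 12 (10.0%, background 6.92%, or 8.59% off those chromosomes). The intervals of the all-list class and of SOX2-OFF alone did not hold the background over all regions. Off chromosomes 6, 8 and 11, the background of the all-list class, 31.3%, fell inside its interval. When weak peaks were left out, the share of regions in all 3 lists no longer stood above the background. With only the 50000 strongest peaks per list, it was 43.8% of 64 regions, against 41.9% of all, and at a −log10 q of at least 5 it was 40.0% of 55, against 41.0%. CEpiLC alone covered 14.1% (background 13.4%) and 1.82% (background 2.02%) in these sets, and the q limit kept 22.4% of CEpiLC peaks but 37.7% of SOX2-ON peaks. In the same order of sets, SOX2-ON alone covered 18.8% (background 16.7%) and 30.9% (background 23.0%). SOX2-OFF alone covered 4.69% (background 9.75%) and 12.7% (background 14.3%).

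**Figure D2:**
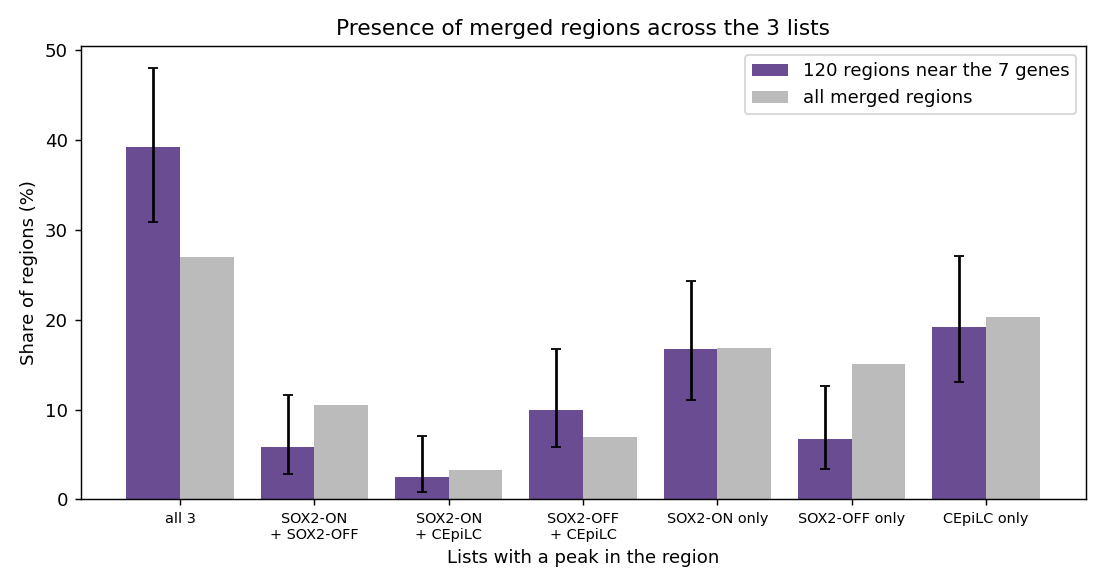
Share (%) of the 120 merged regions near the 7 genes (purple, with Wilson 95% intervals of counting error) and of all 219488 merged regions (grey) by the lists that had a peak there. Regions of all 3 lists made up 39.2% near the 7 genes against 27.0% of all regions. Off chromosomes 6, 8 and 11 the background was 31.3% (not drawn), which the interval held. The share covered by SOX2-ON alone was near the background, 16.7% against 16.9%.

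The strong peaks gave another picture. SOX2-ON had 16 strong peaks near these genes, and 4 of them (25.0%, Wilson 95% interval 10.2 to 49.5) were missing from both other lists, against 4.27% of all its strong peaks and 4.68% of those off chromosomes 6, 8 and 11. The same 4 were those missing from SOX2-OFF, for which the background was 5.04%. With the Tfap2a region at plus 23.7 kb, 5 of the 16 (31.2%, background 8.58%) were missing from CEpiLC. All 4 lay over 1 kb from any annotated start, as did 9 of the 16, and over such peaks of the list the share missing from both was 12.3%, against 44.4% (18.9 to 73.3) of the 9. They are few, 2 of them lie at Msx2, and Msx2 and Tfap2a share chromosome 13. Their ranks were 11701, 16646, 17358 and 18139, and weaker peaks of a list are more often missing. No background of like rank was taken within the strong peaks, so 4.27% and 12.3% are not shares at these ranks. Among the next peaks, down to rank 50000, the share was not raised, with 4 of 30 (13.3%) missing from both, against 19.8% of the list. None of the 13 strong SOX2-OFF peaks was missing from SOX2-ON (background 1.30%) or from both others (0.105%), and none of the 15 strong CEpiLC peaks from both (0.320%), so that the Wilson upper bounds of these shares were 22.8% and 20.4%. Since −log10 p at rank 20000 differed between the lists, equal ranks do not stand for equal evidence, and the part of depth in these counts was not tested.

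The introns of Pax3 held regions of several classes. Counted on transcript Pax3-202, 10 merged regions lay wholly in its introns, 2 in intron 7 and 8 in intron 4, the long intron that takes up most of the gene. All 3 lists covered 3 of them (27.0% of all regions), SOX2-ON alone 3 (16.9%), CEpiLC alone 3 (20.3%), and SOX2-OFF with CEpiLC 1 (6.92%). None was of SOX2-OFF alone (15.1%), SOX2-ON with SOX2-OFF (10.5%) or SOX2-ON with CEpiLC (3.28%). With 10 regions, these shares cannot be told apart from the background. The region at plus 29.1 kb (chr1:78167621-78168357, 737 bp, intron 4) had a SOX2-ON peak of rank 16646 and fold enrichment 3.46, slightly above the 3.34 of the Pax3 start peak in the same list. Neither SOX2-OFF nor CEpiLC had a peak there. The intron held a further 2 regions of SOX2-ON alone, at plus 53.5 kb (chr1:78143342-78143985, rank 27899, 2.42) and plus 57.7 kb (chr1:78139170-78139754, rank 56060, 1.80). Between these, at plus 55.9 kb, a region of all 3 lists had the ranks 38184, 28911 and 33833 in SOX2-ON, SOX2-OFF and CEpiLC.

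The remaining intronic regions of Pax3 showed other orders. The region at plus 7.02 kb (chr1:78189164-78191058) was strong in all 3, with ranks of 14884, 13733 and 11091, and its peak in SOX2-ON was the widest, 1895 bp against 1256 and 1094 bp. At plus 14.7 kb (chr1:78181850-78183113) SOX2-OFF had a peak of 1264 bp at rank 40663 and CEpiLC one of 479 bp at rank 34500, while SOX2-ON had none. In intron 7, at plus 77.1 kb (chr1:78119580-78120523), SOX2-ON had rank 22737 against 61918 in SOX2-OFF and 46462 in CEpiLC. The 3 regions of CEpiLC alone had ranks of 36756, 94624 and 102574 at plus 50.2, 86.3 and 9.63 kb. Along intron 4, the regions nearest to the start were thus those of all 3 lists, of CEpiLC alone and of SOX2-OFF with CEpiLC, and the 3 of SOX2-ON alone began at plus 29.1 kb.

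Outside the Pax3 gene body, the strongest region was 20.3 kb upstream (chr1:78215832-78219003), with ranks of 16589, 17391 and 19527 and covered lengths of 2191, 2834 and 3119 bp. A region of SOX2-ON alone lay beyond the gene end at plus 111 kb (rank 37829, fold enrichment 2.14). In all, Pax3 had 4 strong regions in SOX2-ON and 3 in each of the others, and the difference was the intronic one at plus 29.1 kb.

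**Figure D3:**
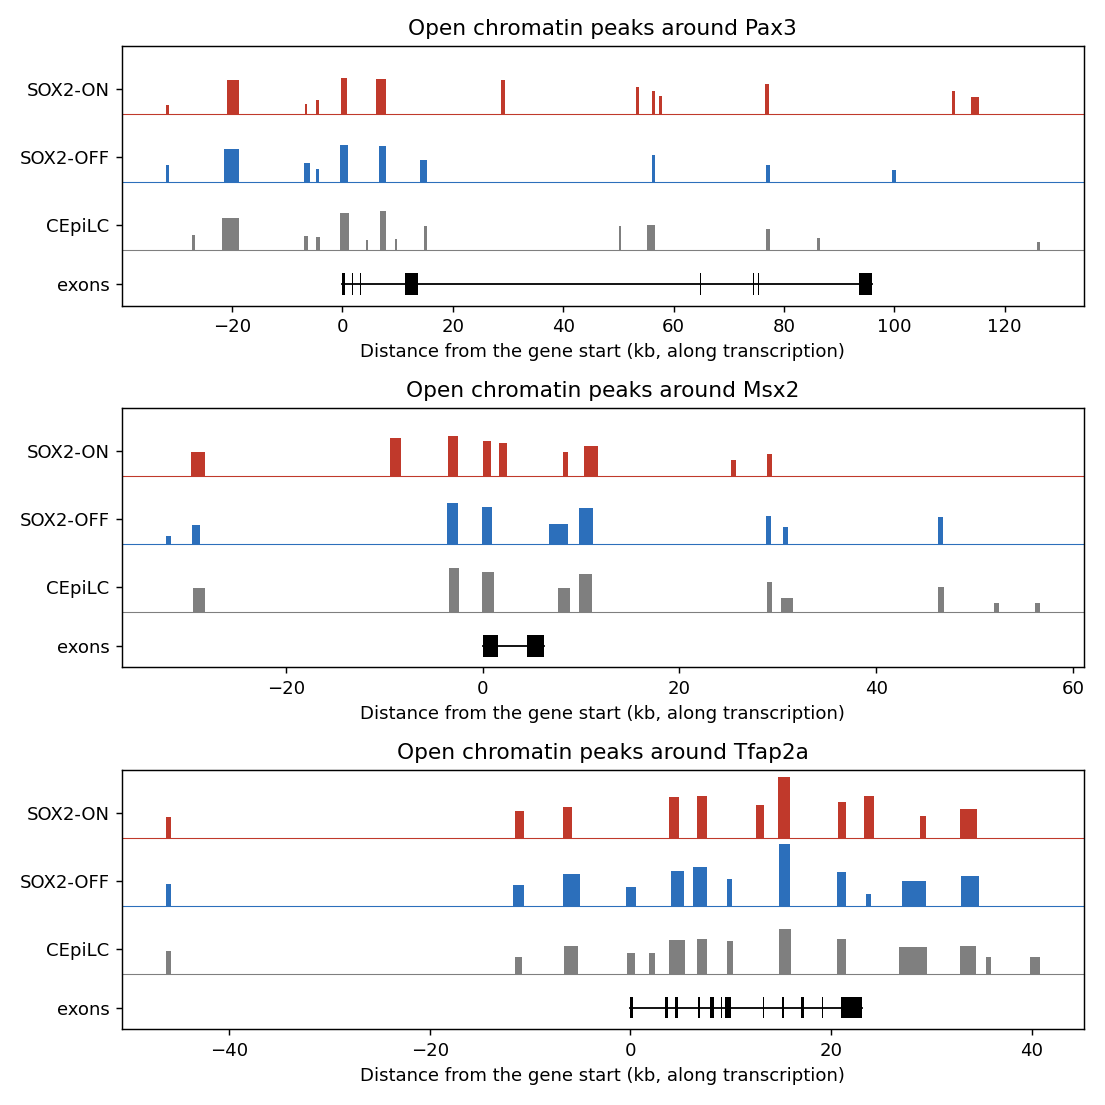
Peaks of SOX2-ON, SOX2-OFF and CEpiLC around Pax3, Msx2 and Tfap2a against distance from the 5′-most start (kb, along transcription); bars span each peak (drawn at least 0.5 kb wide), their height rises with the logarithm of rank towards the strongest peaks, and black boxes are exons of all transcripts. SOX2-ON alone has a tall bar at 29.1 kb in Pax3, at 8.89 kb upstream and 2.10 kb downstream in Msx2 and at 12.9 kb in Tfap2a.

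Msx2 had a region of SOX2-ON alone on each side of its start. The one 8.89 kb upstream (chr13:53481423-53482515, 1093 bp, intergenic) had rank 11701 and a fold enrichment of 4.03. That was above the Msx2 start peak of the same list, at rank 15011 and 2.57. The one at plus 2.10 kb (chr13:53470554-53471394, 841 bp), inside the single intron of Msx2-201, had rank 17358 and 2.43. Neither SOX2-OFF nor CEpiLC had a peak in them. Between them lay the start and a region 3.03 kb upstream that was strong in all 3 lists, with ranks of 10433, 9536 and 7629. The peaks of SOX2-ON alone therefore flanked sites that ranked higher in SOX2-OFF and CEpiLC than in SOX2-ON. Regions in general did so too. The median rank in SOX2-OFF over that in SOX2-ON was 0.922, beside 0.914 at the upstream region and 0.843 at the start. For CEpiLC over SOX2-ON the median was 0.907, beside 0.731 and 0.683.

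The regions downstream of Msx2 had mixed orders. At plus 10.8 kb (chr13:53461373-53463246) the ranks were 21966, 14208 and 12338, and at plus 29.1 kb (within Gm2762) 44123, 26090 and 22511. At plus 46.6 kb (chr13:53426179-53426787), in an intron of Gm2762, SOX2-OFF had rank 29497 and CEpiLC 33463, and SOX2-ON had no peak. At plus 7.80 kb SOX2-OFF was the weakest, with ranks of 36583, 51477 and 35515, and at plus 25.4 kb SOX2-ON alone had a weak peak (rank 67810). No rank ratio among these reached 2 for a region covered by both lists.

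Tfap2a had the strongest region near any of the 7 genes in SOX2-ON and SOX2-OFF. It lay at plus 15.4 kb (chr13:40722368-40723647), inside Tfap2a and within 1 kb of a start of the overlapping gene Gm47061, with ranks of 1935, 1897 and 6742. ATAC-seq does not tell strands apart, so a peak there cannot be given to either gene. Just past the end of Tfap2a, at plus 23.7 kb, the ranks of SOX2-ON and SOX2-OFF were 8868 and 96373, a ratio of 10.9 and the largest of any of the 54 regions that both covered. The SOX2-ON peak covered all 993 bp at a fold enrichment of 3.60, the SOX2-OFF peak 384 bp at 1.45, and CEpiLC had no peak. At plus 12.9 kb (chr13:40725101-40725824), over sequence that is exonic in the annotation and also overlaps Gm47061, SOX2-ON alone had a peak, at rank 18139 and 2.06.

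Tfap2a has 9 annotated transcripts with 9 starts, and these did not move together. The starts around plus 6.91 kb (Tfap2a-201 and Tfap2a-205) had the ranks 8908, 11400 and 15078 given above, and those around plus 4.62 kb (Tfap2a-202, Tfap2a-204, Tfap2a-206 and Tfap2a-208) had 9958, 15953 and 16361. Both were highest in SOX2-ON. At the 5′-most start, that of Tfap2a-203 (chr13:40737835-40738815), SOX2-ON had no peak, SOX2-OFF had rank 53143 and CEpiLC 47114. A region within 1 kb of the starts of Tfap2a-207 and Tfap2a-209 and of Gm26688 (plus 9.92 kb, chr13:40728129-40728783) was also absent from SOX2-ON, with rank 28891 in SOX2-OFF and 18146 in CEpiLC. It is the 1 of 15 strong CEpiLC peaks that SOX2-ON lacked (background 1.42%). At plus 2.14 kb, CEpiLC alone had a peak, at rank 44861. In SOX2-ON, then, open starts of Tfap2a were those of the middle of the gene, and 3 further regions within 1 kb of a start were not called.

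Other regions of Tfap2a were found in all 3 lists. At plus 21.0 kb (exonic) the ranks were 13894, 17259 and 15821, and 5.87 kb upstream they were 21527, 20179 and 26234. At 11.1 kb upstream SOX2-ON was the strongest and CEpiLC the weakest, at 28370, 45574 and 63821.

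Msx1 had 1 strong region in SOX2-ON, its start. A region on each flank ranked higher in the other samples, with 31663, 20086 and 13963 at plus 6.83 kb (chr5:37816822-37818687) and 48804, 26119 and 24681 at 2.11 kb upstream. In the first of these CEpiLC had the narrowest peak, 673 bp against 1768 bp in SOX2-ON, despite its higher rank. Regions at 8.40 kb upstream (SOX2-ON alone, rank 42108, 229 bp) and 5.22 kb upstream (52254, 64712 and 123723) had the other order.

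Pax7 had many peaks and few strong ones. None of its 26 SOX2-ON peaks was strong. A region 25.4 kb upstream (chr4:139858171-139859690) was its strongest in SOX2-OFF and CEpiLC, with ranks of 27023, 19876 and 17133. SOX2-ON had the widest peak there, 1520 bp against 806 and 592 bp. In intron 4 of Pax7-201, a region of SOX2-ON alone lay at plus 17.6 kb (rank 27042, fold enrichment 2.20) and another at plus 26.3 kb in SOX2-ON and SOX2-OFF (38151 and 66038). The same intron held regions of SOX2-OFF and CEpiLC at plus 28.6 kb (65035 and 43355) and plus 22.3 kb (75694 and 37705), and one of SOX2-ON and SOX2-OFF at plus 35.9 kb (103122 and 36797). Downstream of the gene, CEpiLC had rank 26222 and SOX2-OFF 77194 at plus 135 kb, and SOX2-ON had 37679 and CEpiLC 91553 at plus 108 kb. Differences at Pax7 thus went in all directions.

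Among the crest specifiers, Foxd3 had no strong region in any list. A region 14.2 kb upstream (chr4:99641692-99642437) had rank 24596 in SOX2-ON and 37477 in SOX2-OFF and was missing from CEpiLC. At 2.67 kb upstream, over a start of Gm12688, the ranks had the reverse order, at 114232, 59278 and 37259, and at plus 7.12 kb, over an exon of Gm12682, they were 38979, 40184 and 21073. Snai2 had no further peak within 50 kb except a weak one of SOX2-OFF (rank 115002, plus 6.31 kb). Its start (chr16:14704983-14706533) was covered over 1393, 1549 and 1417 bp.

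**Figure D4:**
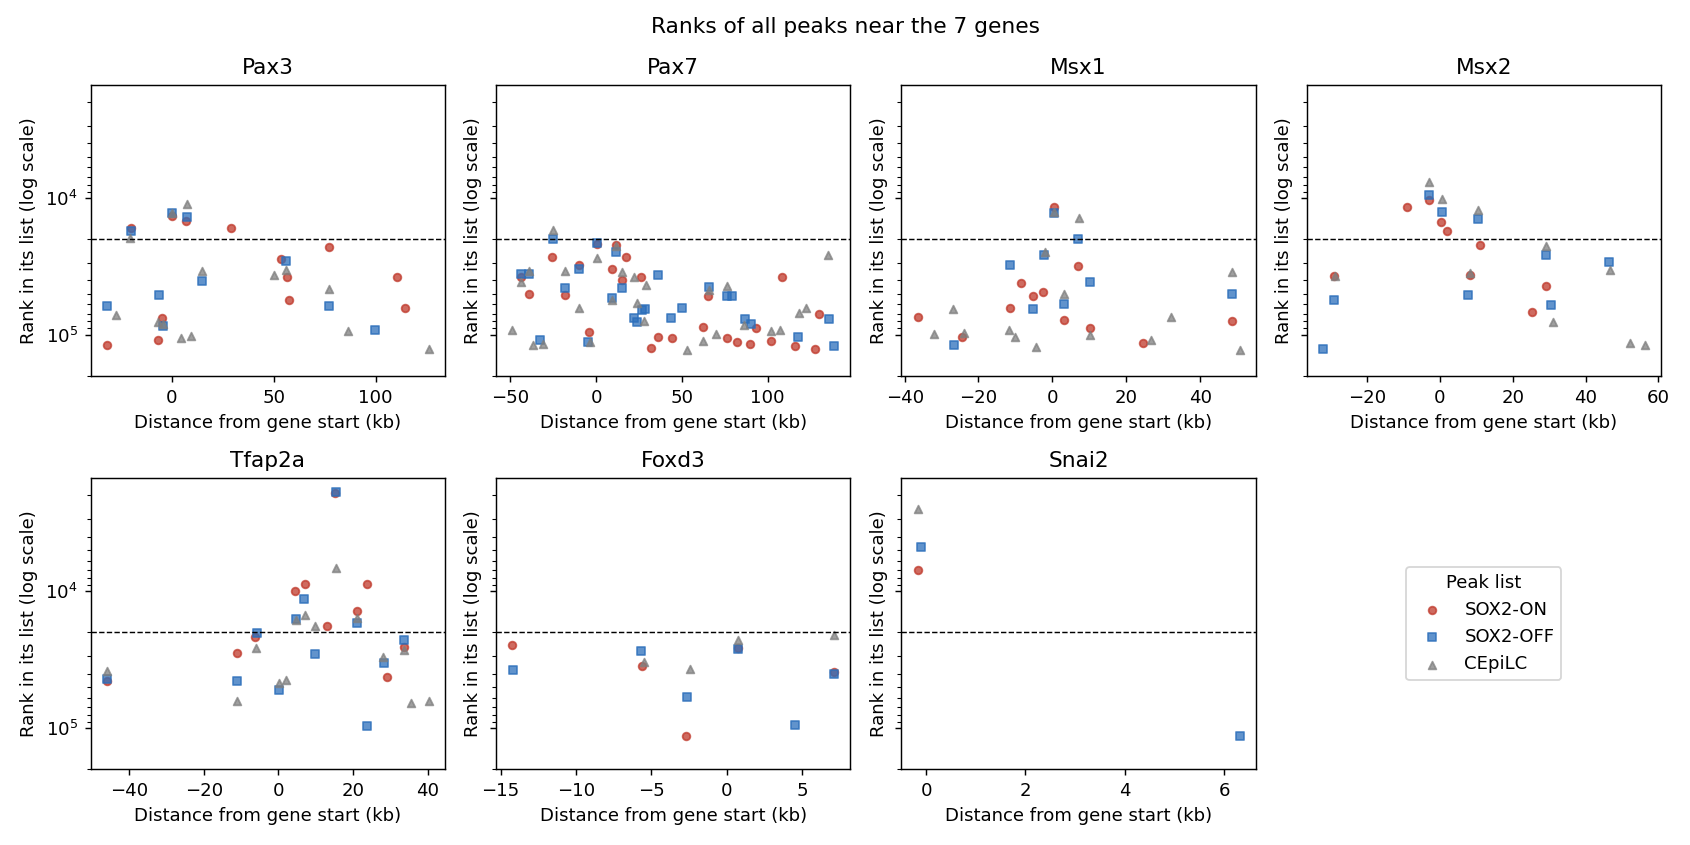
Rank of each peak in its own list (log axis, strongest at the top) against its distance from the 5′-most start (kb, along transcription) for the 7 genes, in SOX2-ON (circles), SOX2-OFF (squares) and CEpiLC (triangles); the dashed line is rank 20000. The SOX2-ON circles without a neighbour above the line are at Pax3, Msx2 and Tfap2a, and no peak of Foxd3 is above it.

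Rank shifts of 2 times or more among regions that both lists covered were about as common near these genes as elsewhere. SOX2-ON ranked higher than SOX2-OFF in 2 of 54 (background 6.03%), at plus 77.1 kb of Pax3 and plus 23.7 kb of Tfap2a. SOX2-OFF ranked higher than SOX2-ON in 5 of 54 (9.26%, background 6.68%), and in 2 when ranks were taken without chromosomes 6, 8 and 11. SOX2-ON ranked higher than CEpiLC in 6 of 50 (12.0%, background 9.46%) and lower in 5 (10.0%, background 12.8%). SOX2-OFF ranked higher than CEpiLC in 3 of 59 (5.08%, background 6.64%) and lower in 2 (3.39%, background 6.30%). All of these Wilson 95% intervals held the background share.

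Motifs were counted on either strand of the middle 300 bp of every merged region. The SOX word was ATTGTT, the TCF/LEF word CTTTGAT and the word of GATA factors AGATAA. The CDX/HOX words were TTTATGG and also TTTATTG. The OTX word was TAATCC, that of TFAP2 GCCNNNGGC, that of SNAI factors CAGGTG, that of ZIC factors CAGCAGG, that of MSX and other homeodomain factors CAATTA and that of OCT factors ATGCAAAT. The palindrome of PAX and homeodomain factors was TAAT, followed after 2 or 3 bases of any kind by its reverse complement. No word contains another. A SOX word was found in 8 of the 120 regions (6.67%), against 13.6% of all regions, and in 3 of the 20 of SOX2-ON alone, against 20.5% of all regions of SOX2-ON alone. A GATA word was in 17 (14.2%, all regions 14.0%) and in 6 of the 20 (30.0%, against 19.5%). A TFAP2 word, the target of one of the 7 genes' own products, was in 21 (17.5%, all regions 10.3%), and no region held the palindrome (0.661% of all). Shares for SNAI (20.8%, all regions 24.9%), ZIC (13.3%, 12.8%), OTX (11.7%, 8.83%), MSX (8.33%, 8.42%), CDX/HOX (6.67%, 7.71%), TCF/LEF (4.17%, 4.98%) and OCT (1.67%, 1.85%) were within 5 percentage points of the background. The median GC content of the 120 was 53.0%, against 49.0%, and its part in these shares was not tested.

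The printed regions differed in the words they held. The Msx2 region 8.89 kb upstream had a SOX word at base 174 of the printed run, GATA words at 79 and 140, a TFAP2 word at 38 and a homeodomain word at 249. The Tfap2a region at plus 12.9 kb had a SOX word at 190, just after a run of T, and a GATA word overlapping an OTX word from 84. The Msx2 intron had overlapping GATA words from 97 and a ZIC word at 190, and no SOX word in its whole 841 bp, where 33.7% of regions of like length (within 10%) have one. The Pax3 region at plus 29.1 kb held a homeodomain word at 275, and no SOX word in its whole 737 bp, against 30.3% of regions of like length. The GC-rich Tfap2a region at plus 9.92 kb (68.0% GC) had none in the centre and 2 SOX words in its 655 bp. A match is a string of letters and not a bound site, and a missing word says nothing of a factor.

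Other genes of the border and crest programme were examined for the same features. These were Zic1, Zic2, Zic5, Gbx2, Dlx3, Dlx5, Dlx6, Tfap2b, Tfap2c, Prdm1, Hes1, Id3, Myc, Mycn, Snai1, Twist1, Ets1, Sox5, Sox8, Sox9, Sox10, Cdh6, Lmo4 and Rhob. All 24 had a start peak in all 3 lists, which was strong for 21, 21 and 22 of them. Of their 63 distinct strong SOX2-ON peaks, 1 was missing from both other lists (background 4.27%), a peak 39.1 kb upstream of Cdh6, a cadherin gene of crest cells (chr15:13212015-13213587, rank 15759, fold enrichment 3.42). None of 70 strong SOX2-OFF peaks (background 0.105%) and none of 70 strong CEpiLC peaks (background 0.320%) was missing from both others. Of the 24 genes, 5 lie on chromosome 6 or 11, which carry an excess of peaks, and without these the counts were 1 of 47, 0 of 57 and 0 of 56.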

How the data were processed

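ATAC-seq peak lists of 3 mouse samples were used, 1 per group (SOX2-ON, SOX2-OFF, CEpiLC), grouped by the labelled genotype and treatment. Each sample held 50000 cells per the labels, amplified by at most 12 PCR cycles. The authors used the nf-core/atacseq pipeline: trimming (Trim Galore), alignment of paired reads (BWA, mm10), removal of mitochondrial reads and broad peak calling for each sample (MACS2). The fold enrichment deposited for a peak is the ratio of pileup to local background, and the deposited −log10 p and −log10 q come from the same caller. The deposited score equals 10 times −log10 q, within 1, and was not used. No control library is described, and broad calling joins neighbouring sites, so edges are approximate. Read depth is unknown from these lists.

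Peaks sharing at least 1 base were merged across lists, ranked by −log10 p within a list, and joined to GENCODE M21. Sequences were read from RefSeq GRCm38.p6, whose chromosome lengths fit the lists. Shares of regions, peaks or genes have Wilson 95% intervals, which cover counting error only. The intervals treat regions as independent, although many share a window (42 of the 120 at Pax7). With 1 sample a group there was no test. Scripts (Python 3.11.15, pandas 2.3.3, numpy 2.4.6) were tested on simulated lists. Regions named were those over starts, those with a strong peak, those among the strongest 50000 of a list and lacking in another, and all in Pax3 introns. A few further regions were named after their values were seen. The members and lists were chosen with earlier results of these data known. Some items of the chosen lists are not reported here. Alternatives tried were other windows, q limits, overlaps, rank measures, start distances and motif windows.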

Additional observations from a re-analysis of the deposited data

How the results depend on the processing

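No paired analysis was possible because there was 1 sample per group, which also leaves no replicate to omit. Of 116 recomputed values for 42 results, 72 stayed within 1.5 times the reported value. Start peaks, widths, the Pax3 introns and the overlap rule (any base, or 50%) gave no value beyond that.

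With windows of 10 kb, SOX2-ON alone covered 11 regions, SOX2-OFF alone 5, CEpiLC alone 8 and 2 lists 14, and CEpiLC had 54 peaks. With 100 kb, CEpiLC alone covered 41 and had 130 peaks. The background does not depend on the window (SOX2-ON alone 16.9%, SOX2-OFF alone 15.1%, CEpiLC alone 20.3%), and these counts were not compared with it. At a −log10 q of at least 2, CEpiLC alone covered 7 and 2 lists 14, and CEpiLC had 56 peaks. At 5 or more, all lists covered 22, CEpiLC alone 1 and 2 lists 8, and the lists had 46, 37 and 24 peaks. Among the strongest 50000 of each list, all lists covered 28, SOX2-ON alone 12, SOX2-OFF alone 3, CEpiLC alone 9 and 2 lists 12. With 50000 in place of 20000 as strong, 8 SOX2-ON peaks were missing from both others, 9 CEpiLC peaks from SOX2-ON and 3 SOX2-OFF peaks from SOX2-ON.

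At a rank ratio of 4, 1 region ranked higher in SOX2-ON than SOX2-OFF and 0 in each other direction. By summed length times fold enrichment, 4 ranked higher in SOX2-ON than SOX2-OFF, 8 in CEpiLC than SOX2-ON and 9 in CEpiLC than SOX2-OFF. By fold enrichment, 4 ranked higher in CEpiLC than SOX2-OFF. Without chromosomes 6, 8 and 11, 2 ranked higher in SOX2-OFF than SOX2-ON and 1 in CEpiLC than SOX2-OFF. The cause was not tested. Over 1 kb from any start, a background chosen after seeing the data, 12.3% of strong SOX2-ON peaks were missing from both others. Motif counts in the central 200 bp were lower for 7 of 11 motifs by over 1.5 times. Over all regions, the share of every motif fell too. For MSX it fell from 8.42% to 5.75%, beside 10 to 3 regions near the 7 genes. For GATA it fell from 14.0% to 9.72%, beside 17 to 10 regions.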
